A study of Mus musculus with 4 samples.

Results

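The core of the NF-κB pathway was followed through 10 genes. They are the 5 NF-κB subunits (Nfkb1, Nfkb2, Rel, Rela and Relb), the inhibitors Nfkbia and Nfkbib, and the 3 genes of the IκB kinase (IKK) complex (Ikbkb, Chuk and Ikbkg). The 10 genes were taken by symbol from a table of 27293 genes, and all 10 were found once. RNA sequencing (RNA-seq) was performed on telencephalic tissue of C57BL/6 mouse embryos at embryonic day 13 (E13), in 2 libraries labelled wild type (WT 1 and WT 2) and 2 labelled STINGf/f;Nestin-Cre (cKO 1 and cKO 2). STING is an adaptor of cytosolic DNA sensing that can activate IKK and NF-κB. In the cKO embryos, Cre is driven by the Nestin promoter, which is active in neural progenitors. By design the floxed STING sequence is meant to be deleted there, and blood vessels, microglia and other cells outside that lineage would keep it. The WT label names no floxed or Cre allele, and the title of WT 2 carries the letters "nes", so whether that embryo carried Nestin-Cre is not known. No label says whether a library was 1 embryo or a pool, or whether embryos shared a litter, so p-values measure only the spread between these libraries.

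NF-κB is a family of dimeric transcription factors. In resting cells the dimers are held in the cytoplasm by IκB proteins, such as those encoded by Nfkbia and Nfkbib. Activated IKK phosphorylates the IκB proteins, which are then degraded, and the freed dimers enter the nucleus. In the canonical branch IKKβ in this way mainly frees dimers of p50 (from Nfkb1) and p65 (from Rela). In the noncanonical branch IKKα drives the processing of p100 (from Nfkb2) to p52, the partner of RelB. Phosphorylation, processing and nuclear entry of the proteins are not measured by RNA-seq, which gives the RNA level of each gene only.

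Several genes of the pathway are themselves known NF-κB targets, so the start sites of the members were searched for the κB consensus, the 10-base motif that the dimers recognise. Promoter windows of 300 bases (250 before and 50 after the start site, RefSeq, GRCm38.p6) were given for 7 of the 10 genes and not for Nfkb1, Relb and Ikbkb. Both strands were searched. The consensus was found in the windows of 3 genes, Nfkb2, Rel and Nfkbia, whereas 9.55% of the 27025 genes with a window held it. The stretches before the first start site of these 3 genes are shown because they carry the matched letters, which are in capitals.
Nfkb2, chr19:46304678-46304736, plus strand: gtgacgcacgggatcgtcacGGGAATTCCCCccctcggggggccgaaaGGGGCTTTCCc
Rel, chr11:23771031-23771081, minus strand: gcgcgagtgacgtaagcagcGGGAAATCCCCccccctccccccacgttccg
Nfkbia, chr12:55492648-55492696, minus strand: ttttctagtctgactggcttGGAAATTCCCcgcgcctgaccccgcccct
In Nfkb2 there were 3 matches between 39 and 11 bases before the start, of which the first 2 overlap. In Rel there were 2 overlapping matches, the first beginning 92 bases before the start. In Nfkbia there was 1 match, 29 bases before the start. Nfkb2 has 3 annotated start sites, and the windows of the other two, which overlap and share a match, held 2 and 1 matches. The letters were not found in the windows of Rela, Nfkbib, Chuk and Ikbkg. A match describes the sequence and is not a measured binding site.

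Total counts ran from 17209654 to 18533391 per library. The limit that a count of 0 allows, 3 counts, was 0.162 to 0.174 CPM (counts per one-millionth part of the library total, so that libraries of unequal depth can be compared), and every member was above it in every library. Reads on the whole STING gene (Tmem173) numbered 20 and 19 for WT against 18 and 22 for cKO. The labels do not say which exons are floxed and reads on the other exons are counted too, so this count does not check the deletion. Alx4, a homeobox gene that the study places under NF-κB, was counted 128 and 76 times in the WT libraries against 32 times in each cKO library (log2 fold change −1.69, SE 0.39, edgeR adjusted p = 0.9999), which met the fold and unadjusted p thresholds of the study. A set of 4 genes on the Y chromosome had 0 counts in WT 2 and 1848 to 3002 counts, summed, in each of the other libraries. Markers of cortical progenitors (7 genes, 1712 to 1920 CPM summed per library) and cortical neurons (7 genes, 4306 to 5364 CPM) were present in all 4 libraries. WT 1 stood apart by meningeal and choroid plexus markers, which summed to 307 CPM and 59.1 CPM there and to at most 81 CPM and 9.88 CPM in the other libraries. Blood markers (919.9 CPM, against 362.8 to 557.2 CPM) and pericyte markers (103.5 CPM, against 69.95 to 74.87 CPM) were also highest in WT 1. Ventral telencephalon markers were lowest in cKO 1, with 621.6 CPM against 901.7 to 917.5 CPM in the other libraries. The library cKO 2 stood apart from cKO 1 by base composition. For the 14919 genes that reached 10 counts in each library, the log2 ratio of cKO 2 to cKO 1 had a median of −0.42 for transcripts under 45% GC and of 0.30 for those of 55% GC or more, against −0.10 and 0.04 for WT 2 to WT 1.

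The first comparison asked whether the RNA of the NF-κB and IKK genes differed between cKO and WT. None of the 10 members met the thresholds that the study used (a fold change of at least 2 and p of at most 0.05), which 0.811% of the 16145 tested genes met. None had an unadjusted p under 0.05, against 1.23% of all genes, and none had an adjusted p under 0.05, as held for 0% of all genes (edgeR quasi-likelihood test, Benjamini-Hochberg adjusted p = 0.9999 for each member; DESeq2 also gave 0 genes, with 127 at an unadjusted p under 0.05). The largest member difference was that of Relb, 1.41-fold higher in cKO (log2 0.49, SE 0.43). The log2 fold change was positive in 7 members and negative in 3, and its median was 0.12, compared with −0.01 and 47.9% positive over all tested genes. Without WT 1 the median of the members was 0.10 with 7 positive, without cKO 2 it was 0.16 with 8 positive, and without WT 2 it was 0.07 with 5 positive. In bulk tissue, fewer cells of a type and less RNA per cell cannot be told apart.

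**Figure D1:**
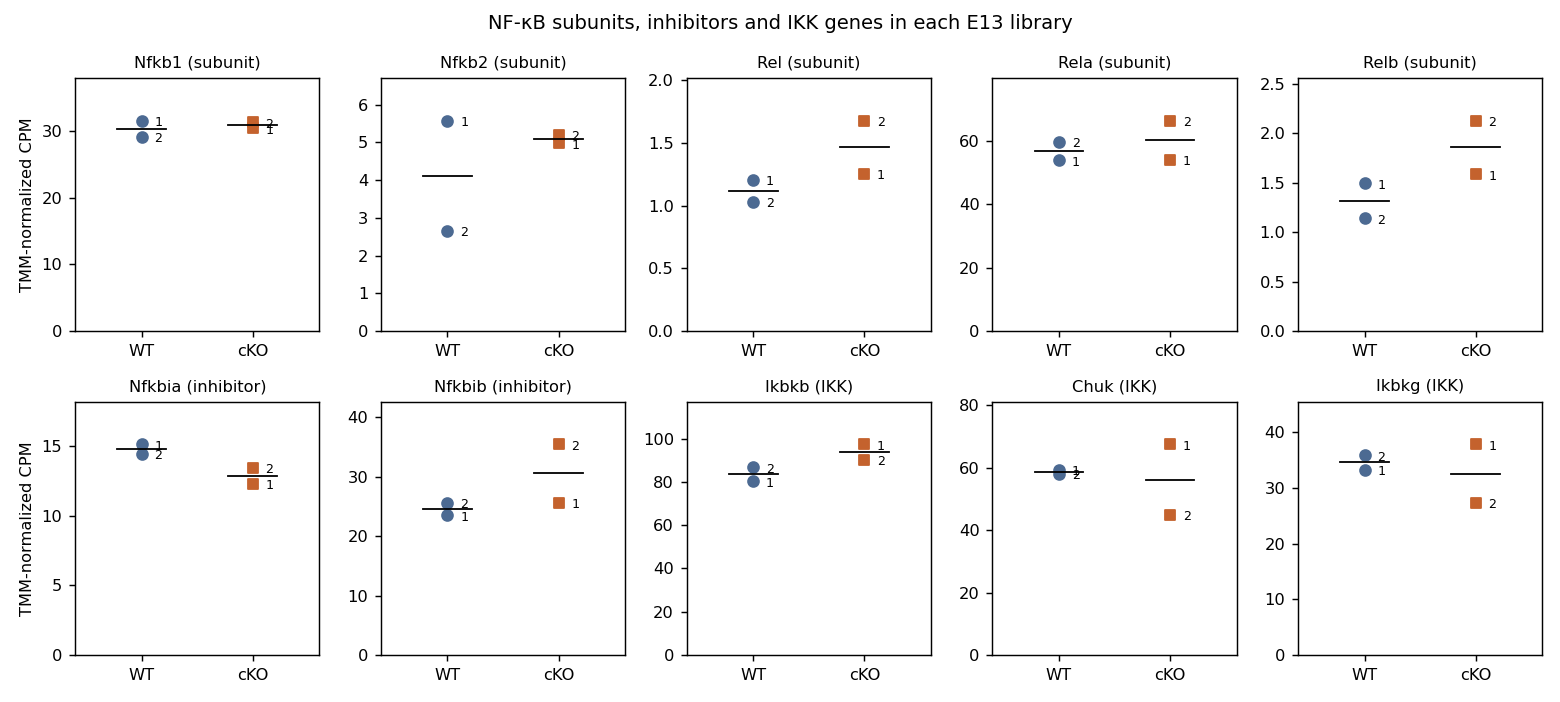
TMM-normalized CPM (y axis, from 0) of each gene in the 2 WT (circles) and 2 cKO (squares) libraries. Numbers give the replicate and lines the mean of 2 libraries. Chuk and Ikbkg spread between the cKO libraries by more than the WT and cKO means differ, and Nfkb2 spreads in the same way between the WT libraries.

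Among the subunits, Rela and Nfkb1, which encode p65 and p50, were close to equal in both groups. Rela (chr19:5637483-5648130, plus strand, GRCm38) had TMM-normalized levels of 54.0 and 59.9 CPM in WT and 54.1 and 66.5 CPM in cKO. The groups overlapped, with cKO 2 the highest library. The fitted log2 fold change was 0.08 (SE 0.17, 95% interval −0.31 to 0.48), and it was −0.06 without cKO 2. Nfkb1 (chr3:135584655-135691547, minus strand) had 31.6 and 29.2 CPM in WT and 30.4 and 31.3 CPM in cKO. All 4 values of Nfkb1 lay within the range set by the WT libraries, and the log2 fold change was 0.02 (SE 0.17, interval −0.37 to 0.42), −0.03 without WT 2. For these 2 genes the intervals leave room for changes between 0.773-fold and 1.39-fold, so a 2-fold change in either direction lies outside them.

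The remaining subunits were low, and their errors were wider. Nfkb2, the precursor of p52, had 97 and 49 counts in the WT libraries against 91 and 93 in the cKO libraries, or 5.58, 2.66, 4.97 and 5.21 CPM. WT 2 was the single low library, and the other three were alike. The log2 fold change of Nfkb2 (chr19:46304737-46312090, plus strand) was 0.31 (SE 0.39, interval −0.60 to 1.21) and turned with the WT library that was left out, to 0.93 without WT 1 and −0.13 without WT 2. In the GENCODE M21 annotation, part of the Nfkb2 exons is shared on the opposite strand with AC114539.1 (531 bases, 11.6%) and with Psd (299 bases, 6.52%). The Nfkb2 start and end there differ from those of the counted gene, so these shares may not hold for it. The strand setting of the counting is not given, so how reads on the shared bases were counted is not known.

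Relb and Rel, the partner of p52 and the c-Rel subunit of immune cells, were the lowest members. Relb (chr7:19606217-19629438, minus strand) had 26 and 21 counts in the WT libraries against 29 and 38 in the cKO libraries, or 1.495, 1.14, 1.59 and 2.13 CPM. Rel (chr11:23736847-23770970, minus strand) had 21 and 19 counts in the WT libraries against 23 and 30 in the cKO libraries, or 1.21, 1.03, 1.26 and 1.68 CPM. In both genes the 2 cKO libraries were above the 2 WT libraries, with cKO 1 close to WT 1. The log2 fold changes were 0.49 for Relb (interval −0.49 to 1.48) and 0.39 for Rel (interval −0.63 to 1.41). At counts of 19 to 38, both intervals include no change and a 2-fold increase.

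The inhibitors had fold changes of opposite sign. Nfkbia (chr12:55489410-55492647, minus strand) encodes IκBα, the inhibitor that NF-κB itself induces in a feedback loop. It had 15.1 and 14.5 CPM in WT and 12.3 and 13.4 CPM in cKO. Both cKO libraries were below both WT libraries, and Nfkbia was the only member with this order, which 10.8% of all tested genes showed. The log2 fold change was −0.20 (SE 0.21, interval −0.68 to 0.28). Over the same libraries, 8 endothelial markers summed to 213 and 165 CPM in WT and to 143 and 142 CPM in cKO, and 9 microglial markers to 46.1, 32.2, 28.5 and 35.3 CPM. No marker of either list met the study thresholds, 5 endothelial and 3 microglial markers were lower without overlap, none was at 0, and their part in the Nfkbia values was not tested.

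Nfkbib (chr7:28758251-28767512, minus strand) encodes IκBβ, which holds Rela-containing dimers and is degraded more slowly. It had 23.5 and 25.6 CPM in WT and 25.6 and 35.5 CPM in cKO. The value of cKO 1 (25.63 CPM) was barely above that of WT 2 (25.58 CPM), and cKO 2 alone was clearly higher. The log2 fold change of 0.32 (SE 0.21, interval −0.17 to 0.80) was the largest of the members relative to its error. Without cKO 1 it was 0.53 (SE 0.16, edgeR adjusted p = 0.196, and 0.999 to 1.0 in the other settings), and without cKO 2 it was 0.08. Nfkbib shares 314 exon bases (14.5%) with Ccer2 and 42 (1.94%) with Sirt2 on the opposite strand.

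Ratios of reads between members were compared within each library, which leaves out the scaling between libraries. Of 8 such ratios, 5 did not overlap between the groups. They were those of Nfkbia to Rela, Nfkbib to Rela, Nfkbib to Nfkbia, Ikbkg to Ikbkb and Relb to Rela. Several share Rela, Nfkbia or Nfkbib and are not independent. The share among ratios of other gene pairs was not computed, so the count is not a result about the members. The ratio of Nfkbib to Nfkbia reads was 1.56 and 1.77 in WT and 2.08 and 2.64 in cKO. The ratio of Nfkbia to Rela reads was 0.280 and 0.241 in WT and 0.227 and 0.202 in cKO. Both ratios kept their group order after a correction for GC content (1.57, 1.76, 2.21 and 2.48 for Nfkbib to Nfkbia, 0.276, 0.244, 0.214 and 0.216 for Nfkbia to Rela). The ratios given in full were chosen after their values were seen and are descriptions of 4 libraries, and an exact permutation test of 2 against 2 cannot give a p under 0.333.

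Of the IKK genes, Ikbkb, which encodes the catalytic subunit IKKβ of the canonical branch, had the highest read count of all members. It had 1395 and 1598 counts in the WT libraries against 1781 and 1609 in the cKO libraries, or 80.2, 86.8, 97.3 and 90.0 CPM. Both cKO libraries were above both WT libraries by a small margin. The log2 fold change of Ikbkb (chr8:22659212-22706589, minus strand) was 0.17 (SE 0.15, interval −0.17 to 0.50), so a decrease below 0.888-fold or an increase above 1.42-fold lies outside the interval. The direction held in each of the 12 other settings tried, between 0.11 and 0.23.

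Chuk, which encodes the catalytic subunit IKKα, and Ikbkg, which encodes the regulatory subunit NEMO, differed between the cKO libraries more than between the groups. Chuk (chr19:44073335-44107480, minus strand) had 59.4 and 58.1 CPM in WT and 67.6 and 44.9 CPM in cKO. The 2 cKO values were the highest and the lowest of the 4, with the WT values between them. Its log2 fold change was −0.06 (SE 0.21, interval −0.55 to 0.42), −0.39 without cKO 1 (SE 0.13, edgeR adjusted p = 0.219, and 0.999 to 1.0 in the other settings) and 0.22 without cKO 2. Ikbkg (chrX:74393290-74453854, plus strand) had 33.3 and 35.9 CPM in WT and 37.9 and 27.3 CPM in cKO. As for Chuk, cKO 1 was the highest and cKO 2 the lowest library, with a log2 fold change of −0.09 (SE 0.21, interval −0.56 to 0.39), −0.34 without cKO 1 and 0.14 without cKO 2. Ikbkg is on the X chromosome and shares 418 exon bases (5.15%) with G6pdx on the opposite strand.

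**Figure D2:**
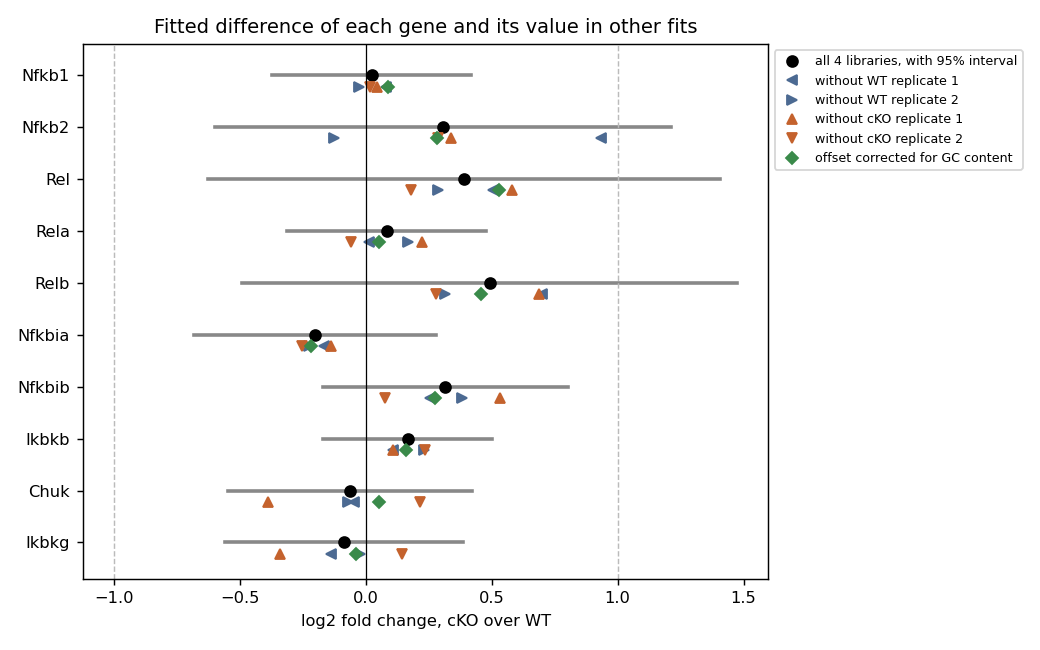
Log2 fold change of cKO over WT (x axis) for each gene. Black points with grey bars are the fit of all 4 libraries with its 95% interval, triangles the fits with 1 library left out and diamonds the fit with a GC-corrected offset. Dashed lines mark a 2-fold change. Each interval includes 0, and 5 genes (Nfkb1, Nfkb2, Rela, Chuk and Ikbkg) have at least 1 point on the other side of 0.

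Across the 10 members, the 2 cKO libraries were both above the 2 WT libraries in 4 genes (Rel, Relb, Nfkbib and Ikbkb), an order found in 11.0% of all tested genes, and both below in Nfkbia. The other 5 genes overlapped. In 7 members a pair of libraries with the same label differed by more than the groups did, against 87.5% of all tested genes, and the exceptions were Relb, Nfkbia and Ikbkb. Summed over the subunits, the level was 93.9 and 93.8 CPM in WT and 92.4 and 106.8 CPM in cKO. Summed over the IKK genes, it was 172.9 and 180.7 CPM in WT and 202.8 and 162.2 CPM in cKO, the 2 cKO libraries enclosing both WT libraries.

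The second comparison set the spread between the cKO libraries against base composition. The members differ in the GC content of their longest transcript, from 41.3% in Chuk to 59.4% in Nfkb2 and Rela. In the ratio of cKO 2 to cKO 1, Chuk (log2 ratio −0.59) and Ikbkg (−0.47, 44.7% GC) lay below 0, while Nfkbib (0.47, 58.8% GC), Relb (0.42, 56.8% GC) and Rela (0.30) lay above it. Nfkb1 (0.04, 44.9% GC) and Nfkb2 (0.07, 59.4% GC) lay near 0 although their GC contents were low and high. The ratios of Nfkbia (52.9% GC) and Ikbkb (51.2% GC) were 0.13 and −0.11. Rel was the member that departed most from this order, with a ratio of 0.42 at 42.5% GC and counts of 23 and 30. Between WT 1 and WT 2, the log2 ratio was −1.07 for Nfkb2, −0.39 for Relb and between −0.23 and 0.15 for the other members.

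**Figure D3:**
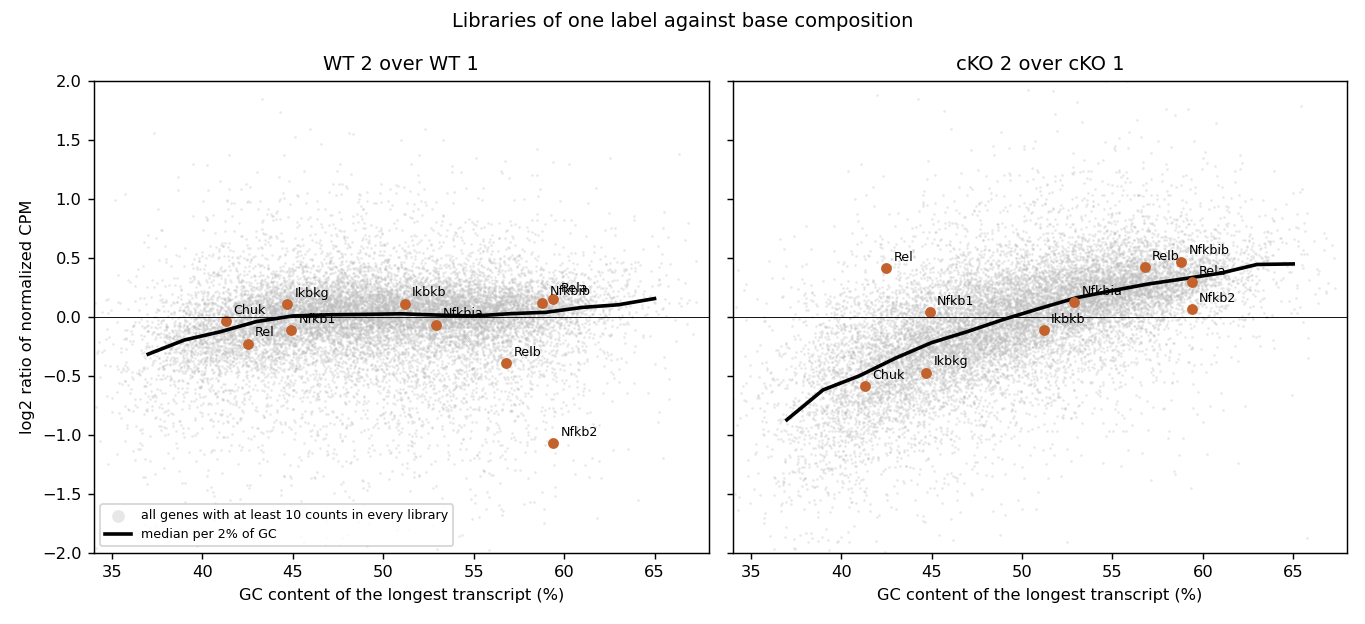
Log2 ratio of normalized CPM between the 2 libraries of one label (y axis) against the GC content of the longest transcript (x axis, %), for WT (left) and cKO (right). Grey points are 14919 genes, the black line is their median per 2% of GC, and orange points are the 10 NF-κB and IKK genes. The line climbs with GC in the right panel, where Chuk lies at −0.59 and Nfkbib at 0.47.

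The GC trend of each library was also taken out by an offset, an alternative chosen after the data were seen, which removes any GC trend between the groups as well. With it, the median size of the log2 ratio between the cKO libraries over the 10 members went from 0.357 to 0.185. Chuk then had 54.0 and 57.7 CPM in WT and 60.3 and 55.6 CPM in cKO, and its log2 fold change was 0.05 (SE 0.12). Rela had 54.9, 59.9, 59.6 and 59.4 CPM, with the cKO libraries nearly equal. Nfkbib kept a difference of 0.28 (SE 0.14), and its 4 values were 23.8, 25.7, 28.1 and 31.9 CPM, the cKO libraries now clear of the WT libraries. Between the cKO libraries, Rel (log2 ratio 0.81), Nfkb1 (0.28), Nfkb2 (−0.24) and Ikbkb (−0.16) moved further apart. After the correction 4 members were higher and 1 lower without overlap, as were 14.6% and 12.7% of all tested genes.

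Levels of the members relative to each other were compared per kilobase of annotated exon (TMM-normalized CPM per kb, mean of 4 libraries). Lengths came from the GENCODE M21 annotation, in which Nfkb2 starts and ends elsewhere than in the counted gene. Rela was the highest at 19.1 CPM per kb (17.6 to 21.6), at the 81.2 percentile of tested genes. It was followed by Nfkbib at 12.7, Chuk at 11.3 and Nfkbia at 8.59 CPM per kb. The ranges of Nfkbib and Chuk overlapped, as did those of Chuk and Nfkbia, so these neighbours were not separated. Ikbkb at 4.64 and Ikbkg at 4.14 CPM per kb also overlapped. Nfkb1 (2.54 CPM per kb), Nfkb2 (1.00), Relb (0.408) and Rel (0.173) formed the lower end without overlap, and Rel was at the 2.65 percentile. The order depended on the length used, most for 2 genes whose annotated exons together are much longer than their longest transcript. On the longest transcript alone, Ikbkb (3.94 times shorter) was at 18.3 CPM per kb and in the second rank, with a range that overlapped those of Rela and Chuk, and Nfkb1 (2.91 times shorter) was at 7.38 CPM per kb. Chuk (16.4 CPM per kb) and Nfkbib (13.4 CPM per kb) changed places. Rela remained highest and Nfkb2, Relb and Rel lowest on both lengths.

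**Figure D4:**
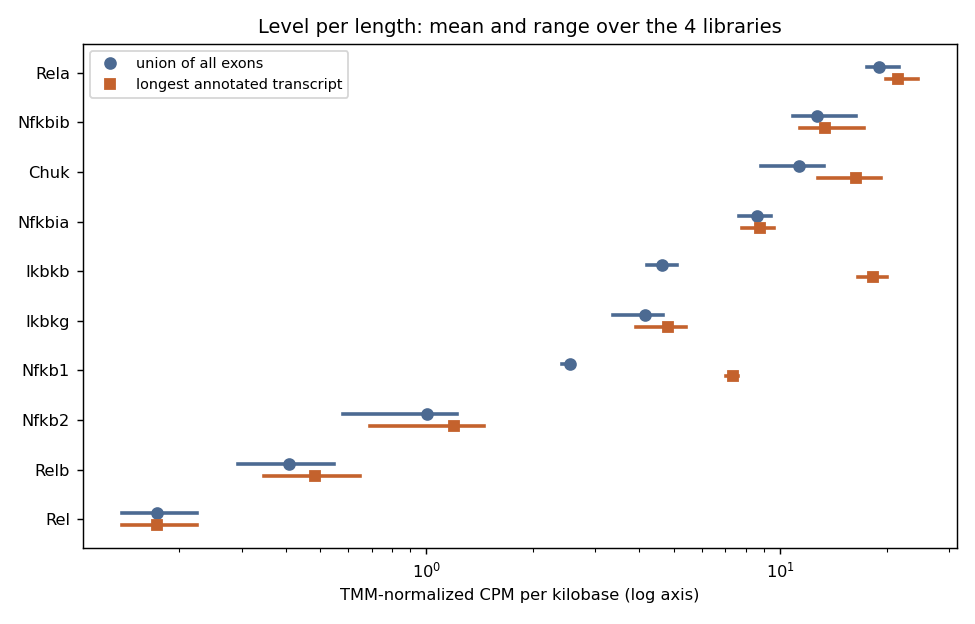
TMM-normalized CPM per kilobase (x axis, log scale) of each gene, as the mean (symbol) and range (bar) of 4 libraries, per union of exons (circles) and per longest transcript (squares). Rela is at the top on both lengths, and Ikbkb and Nfkb1 move most, from 4.64 to 18.3 and from 2.54 to 7.38 CPM per kb.

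The third comparison covered 94 other genes of the pathway, from ligands to target genes. Of these, 75 were tested, 15 were too low and 4 were not found by symbol among the counted genes. None of the 75 met the study thresholds or had an unadjusted p under 0.05 in the edgeR fit, against the 0.811% and 1.23% of all genes given above. Their median log2 fold change was −0.02, with 35 positive and 40 negative values between −0.94 and 0.78, and 6 were higher and 7 lower without overlap, against 11.0% and 10.8% of all tested genes.

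Among 20 ligands and receptors, 11 were tested, and the cytokine transcripts were scarce. Il1a, which encodes interleukin 1α, had 8 and 6 counts in the WT libraries against 11 and 11 in the cKO libraries (log2 fold change 0.63, SE 0.57). Its receptor gene Il1r1 gave the lowest value of the pathway (−0.94, SE 0.56). Il1r1 had 25 and 13 counts in the WT libraries against 11 and 9 in the cKO libraries, with WT 1 apart from the others. The most abundant receptors, the death receptor gene Tnfrsf21 (−0.12) and the neurotrophin receptor gene Ngfr (0.03), were near 0. Among 23 tested adaptors and kinases upstream of IKK, the median was −0.02. Traf5, an adaptor of TNF receptors, had 21 and 14 counts in the WT libraries against 33 and 28 in the cKO libraries and gave the highest value (0.78, SE 0.46). The chaperone genes Hsp90aa1 (0.04) and Cdc37 (0.15), whose products bind IKK, were near 0, and Malt1, a paracaspase gene, was at −0.44 (SE 0.31).

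The 9 genes around STING had a median of −0.08. Irf3, which encodes another transcription factor that STING can activate, was at 0.14 (SE 0.18). Mb21d1, which encodes the DNA sensor cGAS, was at 0.21 with 16 to 23 counts. The ubiquitin ligase gene Trim32, the most abundant of the 9, was at −0.08 (SE 0.15). Stat6 had 100 counts in WT 1 and 57, 53 and 50 in the other libraries (−0.63, SE 0.39), so its difference rested on WT 1. The negative regulators of the pathway were between −0.28 (Tnfaip3, the A20 gene, 66 and 60 counts in the WT libraries against 52 and 53 in the cKO libraries) and 0.09 (Cyld, a deubiquitinase), with the further deubiquitinase gene Otud7b at −0.08. The further IκB genes Nfkbie and Nfkbiz were at 0.24 (SE 0.34) and −0.05 (SE 0.36).

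Among 26 genes known as NF-κB targets, 17 were tested, and 4 of those (Nfkb1, Nfkb2, Relb and Nfkbia) are also members. The median of the 17 was 0.02, with 9 positive and 8 negative values. The anti-apoptotic gene Bcl2l1 (−0.06, SE 0.17) and the cyclin gene Ccnd1 (−0.26, SE 0.19, 102.3 CPM in WT 1 and 72.5 to 74.1 CPM in the other libraries) were the most abundant. Icam1, an adhesion molecule gene, had the lowest value (−0.30, SE 0.50), and Relb the highest. The inflammatory targets Il6, Cxcl10 and Ccl2 had at most 2 counts in any library, so a difference in them was not detectable at this depth. Among 11 cofactors of nuclear NF-κB, Rps3, which also encodes a ribosomal protein, was at 0.15 (SE 0.21), and Sirt1, a deacetylase gene, had the lowest value (−0.28, SE 0.39). Sirt1 had 26.9 and 18.4 CPM in WT and 26.5 and 10.9 CPM in cKO, so the libraries of each label were far apart.

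**Figure D5:**
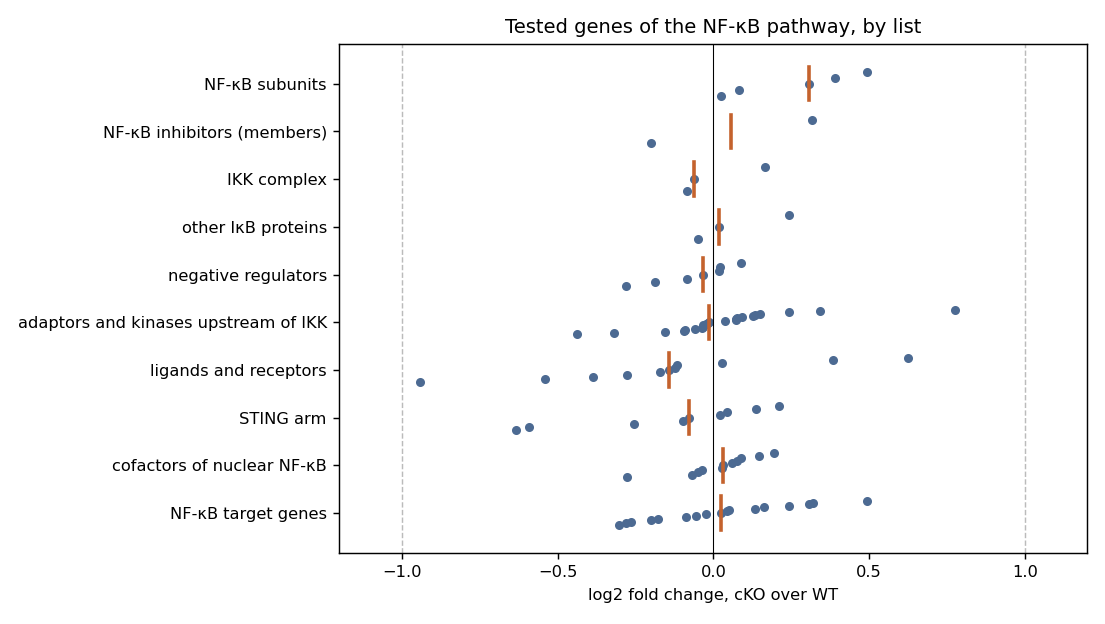
Log2 fold change of cKO over WT (x axis) of each tested pathway gene (points), by list (y axis), with the median of the list as an orange bar and a 2-fold change as dashed lines. All points lie between −0.94 (Il1r1) and 0.78 (Traf5), and a gene on 2 lists is drawn in both.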

How the data were processed

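The authors deposited raw read counts per gene for 4 libraries. Per the labels, 2 µg of total RNA extracted with Trizol went into each library, and the submitters' processing notes name TopHat2 2.0.12, Bowtie2 2.2.3, HTSeq 0.6.0 and mm9. Gene positions in the table, however, match GRCm38 (97.3% of 27232 genes have a start or end within 1 base of GENCODE M21), so positions are given as GRCm38. The strand setting and any removal of duplicates are not given in the sources used here. A second deposited table repeats the counts of WT 1 and cKO 1 (21342 of 21342 shared genes identical). Columns with the authors' scaled values, fold changes, p-values and adjusted p-values were not used.

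Of 27304 rows, 11 (0.0403%) name no gene and were left out. edgeR 4.0.16 (R 4.3.3) was run with TMM normalization, filterByExpr and the quasi-likelihood test on 16145 genes, with Benjamini-Hochberg adjustment over all of them. The log2 fold change is cKO minus WT. Total counts ran from 17209654 to 18533391, and counting error is largest for Rel and Relb. Alternatives were DESeq2 1.42.0, RLE or library-total scaling, other filters, a replicate block, leaving out each library, and offsets corrected for GC content or transcript length (lowess, span 0.3, 99.9% of tested genes with a GC value), of which the offsets were chosen with the data in view. Simulated counts with known changes were used to test the procedure. Members and gene lists were chosen with earlier results of these data known, and no test was made over a list. Named genes are the members, Tmem173, Alx4 and, per list, the 2 most abundant genes, the genes with the highest and the lowest log2 fold change and any gene with p of at most 0.05, while marker lists are given by their sums, with Il6, Cxcl10 and Ccl2 named after their values were seen. Some genes that this rule covers are not reported here.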

Additional observations from a re-analysis of the deposited data

How the results depend on the processing

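No member met the study thresholds in any of the 12 alternatives. Without cKO 1, Chuk and Nfkbib had an unadjusted p under 0.05, with a change under 2-fold, and no member did in the other 11 alternatives. Of 120 member values, 114 kept their direction and 6 turned, and 5 members (Rel, Relb, Nfkbia, Nfkbib and Ikbkb) turned in none. Leaving out each library in turn gave −0.026 to 0.082 for Nfkb1, −0.125 to 0.934 for Nfkb2, −0.06 to 0.224 for Rela, −0.388 to 0.215 for Chuk and −0.341 to 0.144 for Ikbkg. The GC-corrected offset gave 0.053 for Chuk. With 1 library in a group, that library was assumed to vary like the other group. The median of the members ran from 0.07 (without WT 2) to 0.17 (without cKO 1).

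The background count of genes at the study thresholds, 131 (23 higher, 108 lower), was 405 with no filter, 72 under a filter of 10 counts per library, 65 with DESeq2 and 100 (without WT 1) to 517 (without cKO 1) with 1 library left out. Without WT 1, 52 were higher and 48 lower, and without WT 2 the count was 383. The count at an adjusted p under 0.05, 0, was 65 with no filter and 0 to 80 (without WT 2) with 1 library left out. With the replicate block these counts were 208 and 5, and no member changed its call. The libraries share only a number (correlation of same-numbered deviations 0.139 over 16145 genes). The causes were not tested. The number of libraries per group limits every interval, and counts under 40 limit Rel and Relb.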
